A study of Mus musculus with 6 samples.

Results

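Transcripts of 10 enzymes that carry fatty acids into mitochondria and shorten them there were examined in mouse liver. They were Cpt1a, Cpt2 and Crat of the carnitine shuttle, and Acadvl, Acadl, Acadm, Acads, Hadha, Hadhb and Hadh of the beta-oxidation cycle. They were chosen by gene symbol in the array's probe annotation. All 10 were measured, by 18 probe sets, among 12393 genes that had at least 1 probe set with a single symbol. RNA came from the livers of 3 mice injected with an adenoviral vector to overexpress TFEB, a transcription factor known for its action on lysosomal and autophagy genes, and of 3 mice that were not injected. All 6 mice were C57 wild type and 1 month old, and each liver was hybridised to 1 array. The labels give neither the promoter of the vector nor the dose or the time after injection. No liver given an empty vector is among the samples, so injection, vector and TFEB cannot be told apart.

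Long-chain fatty acids are first joined to coenzyme A and cannot cross the inner mitochondrial membrane in that form. Cpt1a on the outer membrane moves the acyl group onto carnitine, and Cpt2 inside moves it back onto coenzyme A. Each turn of the cycle then oxidises, hydrates, oxidises again and cleaves the chain, releasing acetyl-CoA. Liver uses the acetyl-CoA and the electrons in fasting, for ketone bodies and to power glucose synthesis, and inherited loss of most of these enzymes causes low blood sugar on fasting in humans.

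The values are log2 expression values as deposited, and a difference is the mean of the 3 TFEB-injected livers minus the mean of the 3 not-injected livers. A gene was called higher or lower when limma's moderated test gave an adjusted p under 0.05, adjusted over all genes. An exact permutation test of a single gene can go no lower than 0.1 with 3 livers against 3. The number of arrays limits the precision. Correlations across probe sets were 0.992 to 0.997 among TFEB-injected livers, 0.997 to 0.998 among not-injected livers and 0.974 to 0.988 between groups. The single probe set of Tfeb gave 7.48, 7.78 and 7.46 in TFEB-injected livers, against 7.50, 7.59 and 7.47 in not-injected livers, so the groups overlapped. The labels do not say which TFEB sequence the vector carried, so this probe set does not check them. All 18 probe sets of the hybridisation spike-ins, control transcripts added before hybridisation, read lower in every TFEB-injected than in every not-injected liver, with a median difference of -0.32. So did 23 of the 24 probe sets of the poly-A spike-ins, with a median of -0.44. The part of this difference in the results was not tested.

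In TFEB-injected liver 5 of the 10 core genes rose, and 0 were called lower by limma, also at an unadjusted p under 0.05. Cpt1a, Acadl, Acads, Hadhb and Hadh were called higher, by 1.27-fold to 1.35-fold. Of all genes 14.2% were called higher, and 28.1% were called in either direction. Cpt2, Crat, Acadm, Acadvl and Hadha did not pass the test. Differences of the 10 genes ran from -0.01 to 0.43 with a median of 0.28, and 9 were positive; over all genes the median difference was -0.05. In 7 of 10 genes every TFEB-injected liver lay above every not-injected liver, as it did for 20.1% of all genes; in 0 of 10 every TFEB-injected liver lay below every not-injected liver, as in 26.1% of all genes. Of the 18 probe sets, 10 were called higher and 0 lower, where 12.9% of all probe sets with 1 symbol were called higher. The number of core genes called rested in part on single livers: it was 3 of 10 without TFEB-injected liver 1, without not-injected liver 2 or without not-injected liver 3, and 3 of 10 with ordinary variances.

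**Figure D1:**
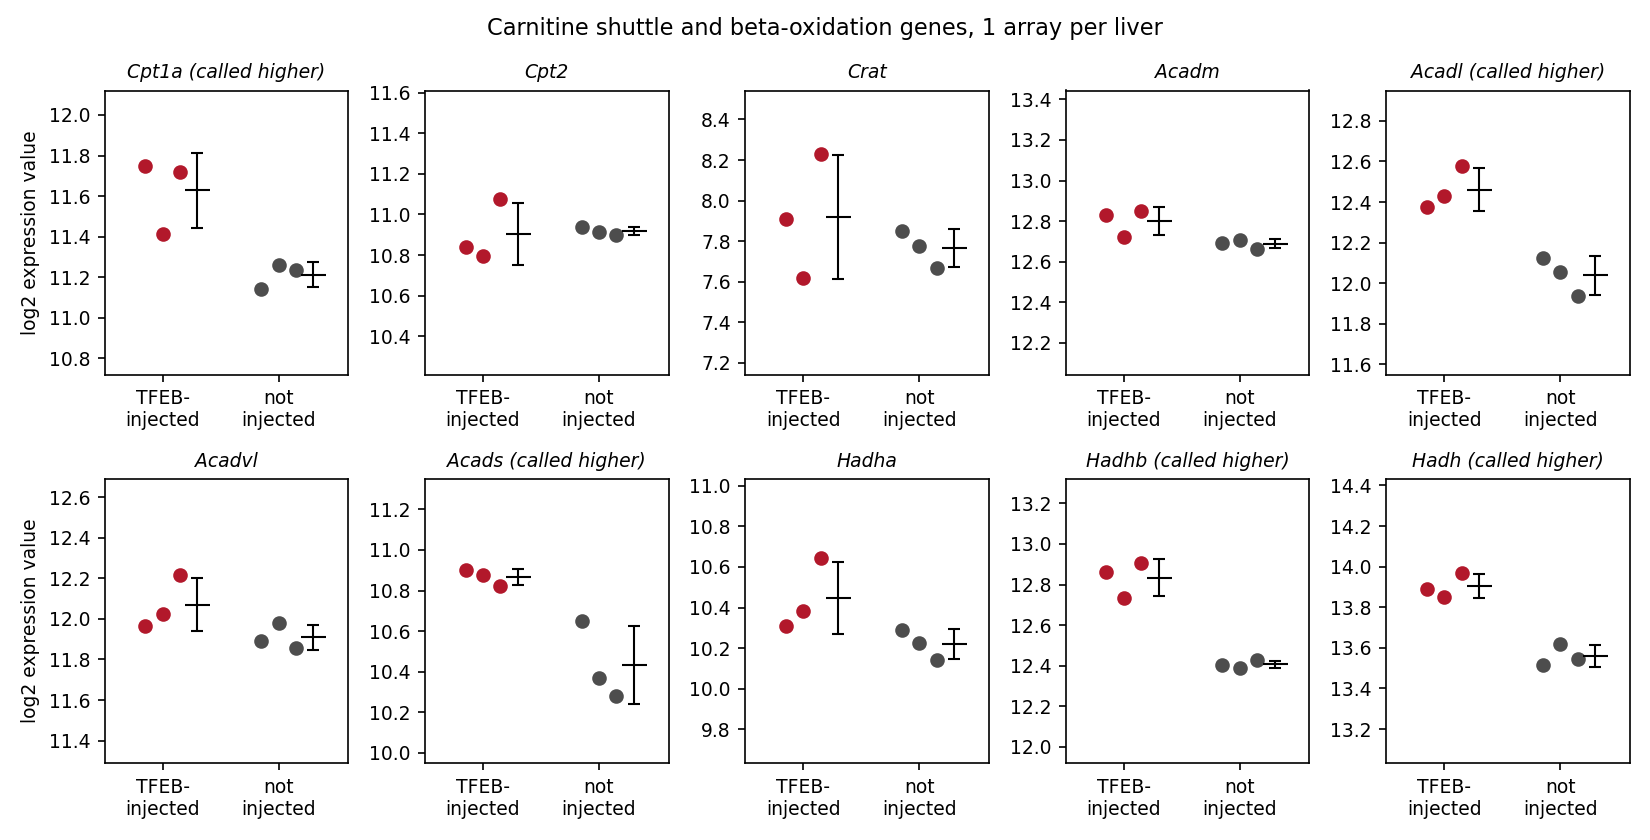
Log2 expression value (vertical axis, each panel spanning the same log2 range around its own mean) of the 10 genes in every liver, with TFEB-injected livers left of not-injected livers. Points are single livers, and the line and bar are the mean and SD of 3 livers. In the 5 genes called higher, and in Acadm and Hadha, the groups do not overlap.

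At the entry step into the mitochondrion, the outer enzyme Cpt1a was called higher and the inner enzyme Cpt2 was not. Their differences were compared only after the values were seen, with an exact permutation p of 0.1, the smallest possible. Cpt1a, the carnitine palmitoyltransferase that malonyl-CoA inhibits and the main point of flux control in liver, was higher in TFEB-injected liver. Its values were 11.75, 11.41 and 11.72 in TFEB-injected livers, against 11.14, 11.26 and 11.23 in not-injected livers. Every TFEB-injected liver lay above every not-injected liver, and TFEB-injected liver 2 was the closest to them. The difference was 0.42 ± 0.10 (SE; 95% confidence interval 0.18 to 0.65), or 1.33-fold, with an adjusted p of 0.0203. Leaving out any liver other than TFEB-injected liver 2 left Cpt1a short of the threshold, with adjusted p between 0.0563 and 0.0698 in those 5 fits. All 3 of its probe sets were called higher, by 0.42, 0.47 and 0.39 on the log2 scale, although those whose names end in _x_at can bind transcripts of more than 1 gene.

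Cpt2, the inner-membrane partner, did not pass. It read 10.84, 10.79 and 11.08 in TFEB-injected livers, against 10.94, 10.91 and 10.90 in not-injected livers. The groups overlapped on both sides, and the difference was -0.01 (95% confidence interval -0.21 to 0.19, adjusted p 0.914). Crat, carnitine acetyltransferase, which moves short acyl groups such as acetyl between carnitine and coenzyme A, spanned 7.62 to 8.23 in TFEB-injected livers and 7.67 to 7.85 in not-injected livers. Its difference of 0.15 (95% confidence interval -0.19 to 0.50) was within that spread. Second probe sets of Cpt2 and Crat gave -0.05 and 0.02, the Cpt2 one with a signal under the lower quartile of each array.

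The acyl-CoA dehydrogenases start each turn of the cycle and differ by the chain length they prefer. Acadl, the long-chain enzyme, and Acads, the short-chain enzyme, were called higher; Acadvl, the very-long-chain enzyme of the inner membrane, and Acadm, the medium-chain enzyme, were not. Acadl read 12.38, 12.43 and 12.58 in TFEB-injected livers, against 12.12, 12.05 and 11.94 in not-injected livers. The difference was 0.42 ± 0.08 (SE), or 1.34-fold, with an adjusted p of 0.00925. Acadl was still called with any 1 liver left out. A second Acadl probe set lay near 4.8, under the lower quartile of each array, with a difference of -0.03, and averaging it in left Acadl at 0.20 with an adjusted p of 0.061.

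Acads read 10.90, 10.88 and 10.82 in TFEB-injected livers, against 10.65, 10.37 and 10.28 in not-injected livers. Here the TFEB-injected livers were the tighter group, and the not-injected livers spread over a wider range. The difference was 0.43 ± 0.10 (SE; 95% confidence interval 0.20 to 0.67), or 1.35-fold, with an adjusted p of 0.018. Acads lost its call without TFEB-injected liver 1, not-injected liver 2 or not-injected liver 3, with adjusted p between 0.0611 and 0.0697. Acadm read 12.83, 12.72 and 12.85 in TFEB-injected livers, against 12.69, 12.71 and 12.66 in not-injected livers. The groups were narrowly apart, and the difference of 0.11 (95% confidence interval -0.04 to 0.26) had an adjusted p of 0.237. Acadvl spanned 11.97 to 12.22 in TFEB-injected livers and 11.86 to 11.98 in not-injected livers, which overlap, with a difference of 0.16 (95% confidence interval -0.03 to 0.36) and an adjusted p of 0.187.

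The last steps for long chains belong to the mitochondrial trifunctional protein, whose alpha subunit Hadha hydrates and oxidises the chain and whose beta subunit Hadhb is the thiolase that cleaves it. Hadhb had the smallest p of the 10 genes. It read 12.86, 12.73 and 12.91 in TFEB-injected livers, against 12.40, 12.39 and 12.43 in not-injected livers. The gap between the groups was wider than the spread within either, and the difference was 0.43 ± 0.07 (SE), or 1.34-fold, with an adjusted p of 0.00442. Its other probe set gave 12.47, 12.24 and 12.59 in TFEB-injected livers, against 11.75, 11.82 and 11.73 in not-injected livers. That difference was larger, 0.67 ± 0.10 (SE) or 1.59-fold, so the probe sets of Hadhb differ in size and not in direction. The first of them, like that read for Hadh, is an _x_at set. Hadha read 10.31, 10.38 and 10.65 in TFEB-injected livers, against 10.29, 10.23 and 10.14 in not-injected livers. The groups only just cleared each other, and the difference of 0.23 ± 0.10 (SE) did not pass, with an adjusted p of 0.127.

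Hadha and Hadhb are head-to-head neighbours on mouse chromosome 5, with RefSeq start sites 273 bases apart on opposite strands. Their promoter windows, taken from 250 bases before to 50 bases after each start in the RefSeq table for GRCm38.p6, share 228 bases. The Hadhb window, chr5:30155003-30155302 on the plus strand, holds the Hadhb start site but not that of Hadha, and is shown with the shared stretch in capitals:
Hadhb: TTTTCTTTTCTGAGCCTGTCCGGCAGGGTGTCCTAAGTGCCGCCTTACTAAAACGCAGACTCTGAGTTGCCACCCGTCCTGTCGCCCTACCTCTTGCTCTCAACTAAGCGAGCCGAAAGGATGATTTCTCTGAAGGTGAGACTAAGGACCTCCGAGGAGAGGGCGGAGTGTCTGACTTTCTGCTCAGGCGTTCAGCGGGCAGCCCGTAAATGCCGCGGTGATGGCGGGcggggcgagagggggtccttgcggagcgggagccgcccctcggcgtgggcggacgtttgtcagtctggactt
The Hadha window is chr5:30154931-30155230 on the minus strand, and its shared stretch is the reverse complement of those capitals. The difference in Hadhb exceeded that in Hadha by 0.20 ± 0.10 (SE) from liver to liver, and on that quantity the groups overlapped.

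**Figure D2:**
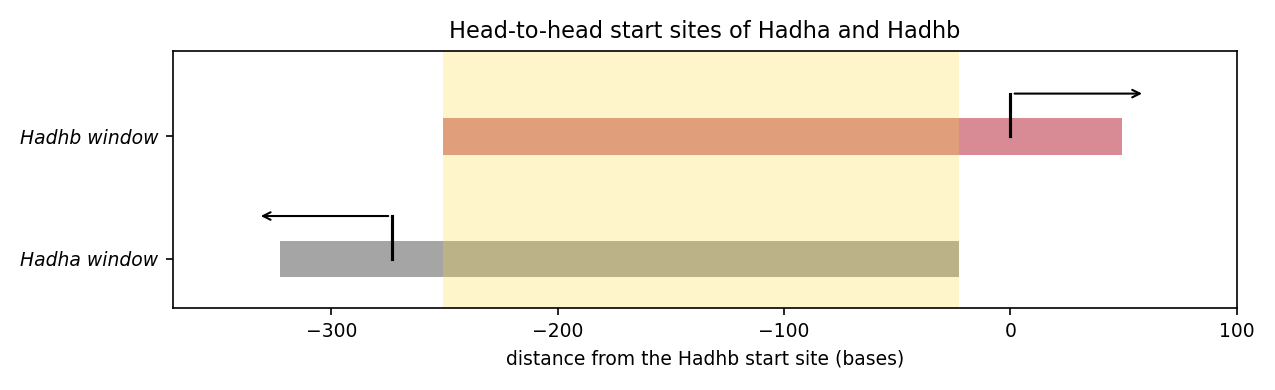
Promoter windows of Hadha and Hadhb drawn to scale by distance from the Hadhb start site in bases, with arrows for the direction of transcription. The windows share 228 bases and the start sites lie 273 bases apart.

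Hadh, the matrix dehydrogenase that takes medium and short chains through the second oxidation, was called higher. It read 13.89, 13.85 and 13.97 in TFEB-injected livers, against 13.52, 13.62 and 13.54 in not-injected livers. The groups were clear of each other, with a difference of 0.34 ± 0.07 (SE), or 1.27-fold, and an adjusted p of 0.00885. All 3 probe sets of Hadh were called higher, by 0.34, 0.37 and 0.22 on the log2 scale. Hadhb and Hadh were called under each of the 14 alternative settings.

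**Figure D3:**
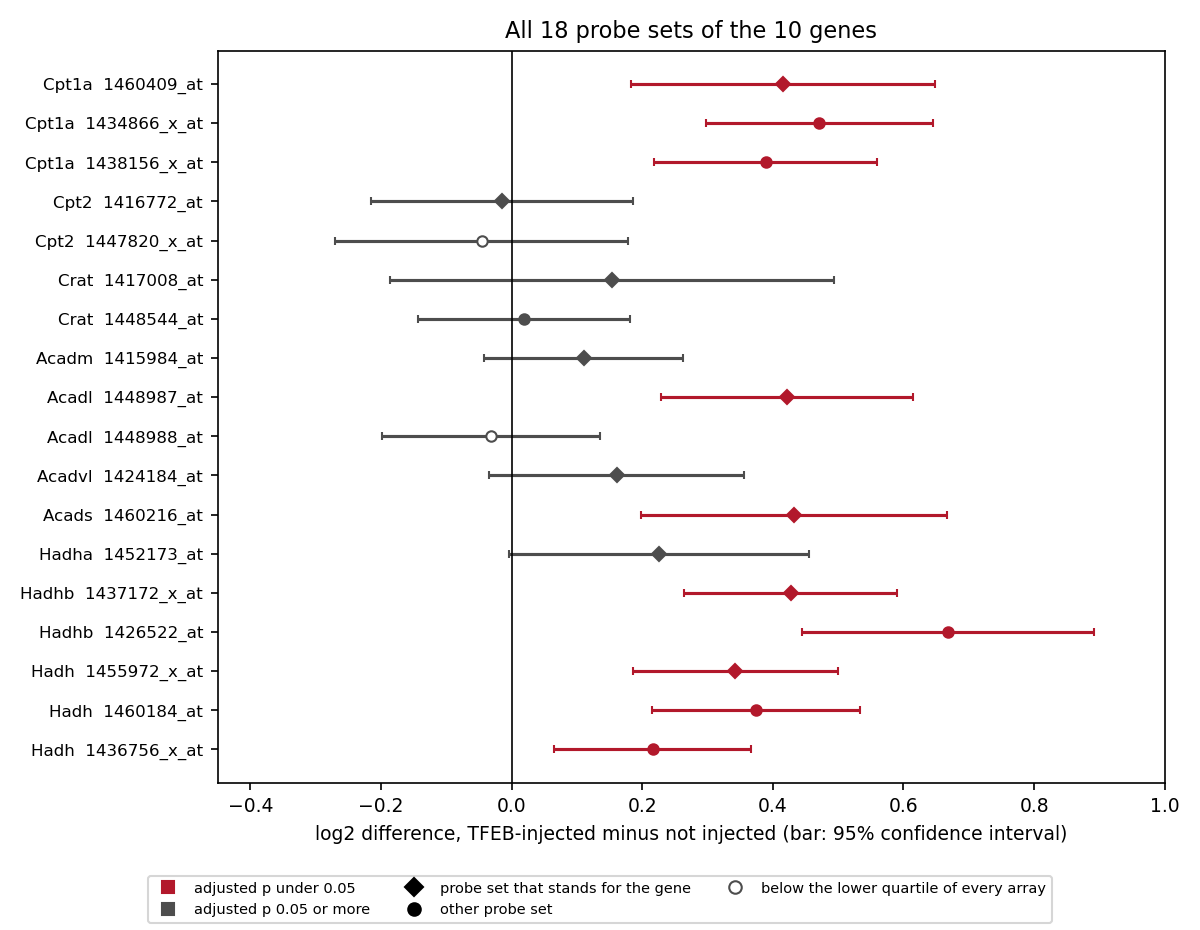
Difference in log2 value, TFEB-injected minus not-injected, for each of the 18 probe sets (horizontal axis), with its 95% confidence interval. The 10 called probe sets belong to Cpt1a, Acadl, Acads, Hadhb and Hadh. The intervals of the second, low-signal Acadl probe set and of all probe sets of Cpt2, Crat, Acadm, Acadvl and Hadha cross 0.

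The livers did not contribute alike. The median deviation of the 10 genes from the not-injected mean was 0.24, 0.18 and 0.42 in TFEB-injected livers 1, 2 and 3, against 0.01, 0.01 and -0.04 in the not-injected livers. TFEB-injected liver 3 was the highest of its group in 8 of 10 genes, and TFEB-injected liver 2 the lowest in 6. Neighbouring steps were set against each other in 4 pairs chosen after their values were seen. Cpt1a exceeded Cpt2 in difference by 0.43 ± 0.10 (SE), Acads exceeded Acadm by 0.32 ± 0.12 (SE), and Acadl exceeded Acadvl by 0.26 ± 0.05 (SE). In these 3 pairs the livers of the groups were apart and the two-sided exact permutation p was 0.1, the smallest possible, or 0.133 adjusted over the 4 pairs. For Hadhb against Hadha the exact p was 0.2. With 3 livers against 3 this exact test cannot reach a p under 0.05.

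Promoter windows were found for 9 of the 10 genes; Crat had no entry in the table. They were searched on both strands for 5 sequences. CACGTG, the palindromic E-box that TFEB and related factors can bind, was in 0 of 9 windows and in 7.15% of all 32851 windows. AAGGTCA, an extended half-site bound by estrogen-related receptors, was in 1 of 9, that of Acadm, and in 4.72% of all windows. AGGNCA repeated in the same direction after 1 base of any kind, the pattern bound by PPAR and RXR dimers, was in 0 of 9 and in 0.381% of all windows. GCATGCGC, a core of NRF1 sites, was in 1 of 9, again Acadm, and in 2.71% of all windows. The GC box GGGCGG was in 7 of 9, all but Acadm and Acadvl, and in 35.7% of all windows. The only GC box of the Hadha window lies in the stretch shared with the Hadhb window and is counted in both. The member windows held 50.7% to 70.3% G and C, against a median of 52.7% over all windows. A match is only a run of letters in this short window, and the absence of one says nothing of binding elsewhere. The windows of a called and an uncalled gene are shown with the matches in capitals, Cpt1a at chr19:3323051-3323350 on the plus strand with 3 GC boxes read on its minus strand, and Acadm at chr3:153944594-153944893 on the minus strand with AAGGTCA, read as its reverse complement TGACCTT, and GCATGCGC:
Cpt1a: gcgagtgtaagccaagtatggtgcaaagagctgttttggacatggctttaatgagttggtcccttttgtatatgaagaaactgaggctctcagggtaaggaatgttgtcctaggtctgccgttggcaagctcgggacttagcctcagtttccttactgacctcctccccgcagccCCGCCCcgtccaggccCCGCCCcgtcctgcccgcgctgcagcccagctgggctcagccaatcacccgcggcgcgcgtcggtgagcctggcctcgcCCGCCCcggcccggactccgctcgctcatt
Acadm: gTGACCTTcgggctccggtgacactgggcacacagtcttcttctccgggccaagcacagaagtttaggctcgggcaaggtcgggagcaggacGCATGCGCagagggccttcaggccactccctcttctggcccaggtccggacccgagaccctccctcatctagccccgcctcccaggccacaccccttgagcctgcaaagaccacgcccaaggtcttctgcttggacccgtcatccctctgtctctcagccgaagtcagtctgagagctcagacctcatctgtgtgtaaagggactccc

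Beyond the core set, genes of the pathway were called in both directions. Of 35 measured genes in 5 further lists, 6 were called higher, 10 lower (counting Nudt7, a peroxisomal enzyme) and 19 did not pass, with a median difference of -0.04. Acsl6, among those called lower, had a signal under the lower quartile of each array. Over all genes 14.2% were called higher and 13.9% lower. These counts rested on few livers. In the further lists, leaving out 1 liver gave 1 to 8 genes called higher and 3 to 11 called lower, with 1 called higher without not-injected liver 2 and 3 called lower without TFEB-injected liver 1.

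Among 7 genes of carnitine supply and transport, Slc22a5 and Tmlhe were called higher, Aldh9a1 was called lower and 4 did not pass. Slc22a5, the carnitine importer of the plasma membrane, read 9.25, 8.83 and 9.53 in TFEB-injected livers, against 8.64, 8.60 and 8.49 in not-injected livers. The groups were apart and the TFEB-injected livers widely spread, with a 1.54-fold rise (0.63 ± 0.16, SE; adjusted p 0.0271) that held, of the 6 fits with a liver left out, only in that without TFEB-injected liver 2 (adjusted p 0.0577 to 0.0913 in the other fits). With the mean of its probe sets Slc22a5 differed by 0.38 and was not called (adjusted p 0.0731). Tmlhe, the first enzyme of carnitine synthesis, rose 1.36-fold (0.44 ± 0.09, SE; adjusted p 0.0134), with an adjusted p of 0.0554 without not-injected liver 2. Aldh9a1, a later enzyme of carnitine synthesis, fell by 0.19 on the log2 scale (SE 0.06, adjusted p 0.0491), a call lost in all 6 fits with a liver left out and with the replicate number as a block (adjusted p 0.0838). The carnitine-acylcarnitine carrier Slc25a20, which links Cpt1a to Cpt2, had a difference of -0.04 and was not called. Bbox1, of the same list, just missed the threshold with a difference of -0.49 (SE 0.15, adjusted p 0.0508).

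Acyl-CoA synthetases, which activate fatty acids, were called lower more than higher, 4 against 1 of 9 measured. Of all genes 13.9% were called lower and 14.2% higher. Acsm1, a medium-chain synthetase of the matrix, read 10.68, 11.15 and 10.83 in TFEB-injected livers, against 11.71, 11.80 and 11.87 in not-injected livers. The groups were apart, a fall of 1.88-fold (-0.91 ± 0.12, SE; adjusted p 0.00208). Slc27a5, which activates bile acids and takes up long-chain fatty acids, fell by 0.46 on the log2 scale (SE 0.09, adjusted p 0.00842), and the related medium-chain Acsm2 fell by 0.40 (SE 0.10, adjusted p 0.019). Acsm2 lost its call without TFEB-injected liver 1 or 3 and without not-injected liver 2 or 3, with adjusted p between 0.0558 and 0.0735. Acsl6, with a signal under the lower quartile of each array, was the other gene called lower and Acsm3 the gene called higher. Acsl1 and Acsl3 were not analysed here.

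In a list of 12 further enzymes, made for the matrix but holding the peroxisomal Nudt7, 3 were called higher, 4 lower with Nudt7 among them, and 5 did not pass. Eci1, the isomerase that lets unsaturated chains into the cycle, read 12.27, 12.40 and 12.31 in TFEB-injected livers, against 11.78, 11.68 and 11.58 in not-injected livers. The groups were clear of each other, a 1.57-fold rise (0.65 ± 0.08, SE; adjusted p 0.00123). Decr1, the reductase for chains with further double bonds, and Acad10 were also called higher. Acaa2, the matrix thiolase for medium chains, read 12.74, 12.86 and 12.84 in TFEB-injected livers, against 13.11, 13.16 and 13.07 in not-injected livers. Its fall of 1.23-fold (-0.30 ± 0.07, SE; adjusted p 0.0143) was opposite in sign to the rise of the long-chain thiolase Hadhb, and it lost its call without TFEB-injected liver 1 (adjusted p 0.0528) or not-injected liver 2 (0.0585). Nudt7, which cleaves coenzyme A in peroxisomes rather than acting in the matrix cycle, fell by 0.71 on the log2 scale (SE 0.16, adjusted p 0.0149), with an adjusted p of 0.052 without TFEB-injected liver 1 and 0.0517 without not-injected liver 3. With the mean of its probe sets Nudt7 fell by 1.17. Hsd17b10 and Nudt8 were also called lower. Hsd17b10 acts mainly in isoleucine breakdown and mitochondrial RNA processing.

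The electron acceptors of the dehydrogenases, Etfa, Etfb and Etfdh, had differences of 0.12, -0.19 and 0.07, and 0 of 3 were called by limma, with 0 at an unadjusted p under 0.05. Etfb, with the smallest p of the 3 (0.0503 unadjusted), had an adjusted p of 0.122. It was called lower in 2 of the 14 alternatives, with array weights (adjusted p 0.0391) and without TFEB-injected liver 2 (0.021). Of 4 genes that handle the propionyl-CoA left by odd chains, Pccb, a subunit of propionyl-CoA carboxylase, was called lower (-0.38 ± 0.07, SE; adjusted p 0.00695) and 3 did not pass. Of 4 acyl-CoA dehydrogenases that act on amino acid breakdown instead of fatty acids, Acadsb was called lower (-0.42 ± 0.08, SE; adjusted p 0.00789) and 3 did not pass.

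**Figure D4:**
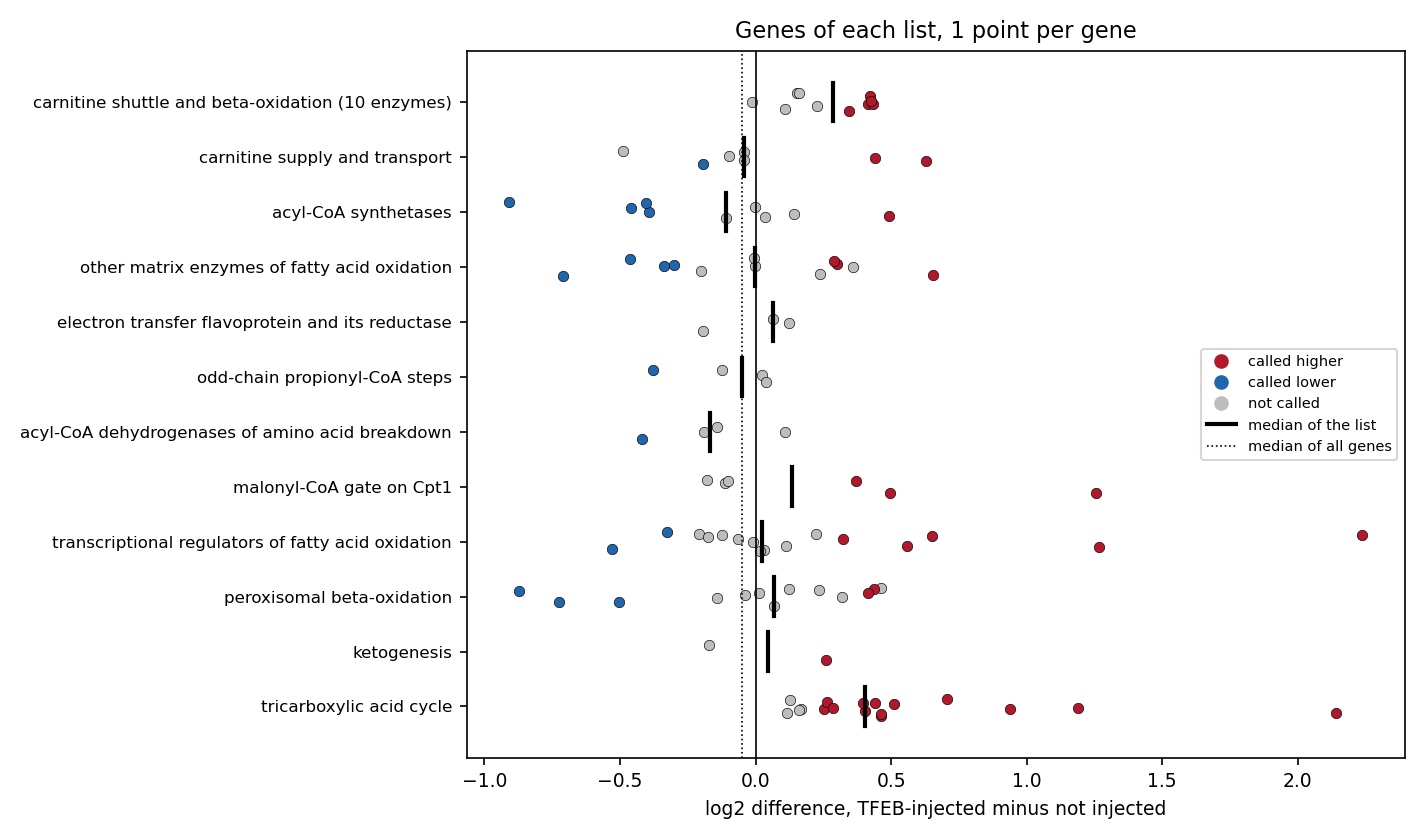
Difference in log2 value, TFEB-injected minus not-injected (horizontal axis), for each measured gene of the 10-gene core set and of the other lists (rows), 1 point per gene, with the list median as a bar and the median of all genes as a dotted line; red, blue and grey points are genes called higher, called lower and not called. The core set has a median of 0.28 and the tricarboxylic acid cycle 0.40, while the list of other matrix enzymes spreads on both sides of 0.

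Malonyl-CoA, the inhibitor of Cpt1a, is made and removed by enzymes that were also measured. Of 6 genes that act on its level, Acacb, Mlycd and Prkag2 were called higher by limma, 0 lower (also 0 at an unadjusted p under 0.05) and 3 did not pass. Over all genes 14.2% were called higher and 13.9% lower. Acaca, the cytosolic acetyl-CoA carboxylase, was among those 3, with a difference of -0.18 and an adjusted p of 0.439. Acacb, the acetyl-CoA carboxylase that makes malonyl-CoA at the mitochondrial surface, read 10.98, 11.05 and 11.02 in TFEB-injected livers, against 9.83, 9.56 and 9.90 in not-injected livers. Mlycd, malonyl-CoA decarboxylase, which removes it, read 9.95, 9.84 and 10.01 in TFEB-injected livers, against 9.55, 9.58 and 9.56 in not-injected livers. The groups were apart for both genes, and Acacb rose 2.39-fold (1.26 ± 0.10, SE; adjusted p 0.000234) and Mlycd 1.29-fold (0.37 ± 0.07, SE; adjusted p 0.007). Prkag2, a regulatory subunit of AMP-activated kinase, which inhibits Acacb by phosphorylation, rose 1.41-fold (SE 0.11 on the log2 scale, adjusted p 0.0145), with an adjusted p of 0.0525 without not-injected liver 2. The other measured subunits of this kinase, Prkab1 and Prkag1, had differences of -0.11 and -0.10 and were not called. Its subunits Prkaa1, Prkaa2 and Prkab2 were not analysed here. Malonyl-CoA itself and enzyme activity were not measured.

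Among 16 measured transcriptional regulators of fatty acid oxidation, 5 were called higher, 2 lower and 9 did not pass. The shares over all genes were 14.2% called higher and 13.9% called lower. Ppargc1a, the coactivator of mitochondrial genes in fasting, read 10.32, 10.14 and 10.05 in TFEB-injected livers, against 8.15, 7.61 and 8.04 in not-injected livers. It rose 4.71-fold (2.24 ± 0.15, SE; adjusted p 0.000122). Esrra, the orphan nuclear receptor that works with this coactivator, read 8.55, 8.63 and 8.69 in TFEB-injected livers, against 7.98, 8.21 and 8.01 in not-injected livers, a 1.47-fold rise (0.56 ± 0.08, SE; adjusted p 0.00321). Both genes had groups clear of each other. Ppara, the receptor that senses fatty acids, read 10.62, 10.70 and 10.52 in TFEB-injected livers, against 10.59, 10.57 and 10.59 in not-injected livers, a difference of 0.03 (95% confidence interval -0.13 to 0.19, adjusted p 0.761). Its partner Rxra fell by 0.32 on the log2 scale (SE 0.07, adjusted p 0.0107). Lpin1, Foxa2 and Nrip1 were also called higher (adjusted p 0.0119, 0.0479 and 0.0259), and Cebpa lower (adjusted p 0.0152). Over these and the malonyl-CoA genes, 8 were called higher and 2 lower of 22, against 4 higher and 1 lower without not-injected liver 2, and 1 lower without not-injected liver 3.

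For comparison outside the mitochondrial cycle, peroxisomal beta-oxidation, which shortens very long and branched chains, had 2 of 13 measured genes called higher, 3 lower and 8 that did not pass, with a median difference of 0.07. The shares to set beside these counts and those that follow are 14.2% of all genes called higher and 13.9% called lower. Acox2, the oxidase for branched chains and bile acid precursors, fell by 0.72 (SE 0.07, adjusted p 0.000686), and the peroxisomal importer Abcd3 by 0.50 (SE 0.07, adjusted p 0.00246). Pecr was the other gene called lower, and Acox3 and Acaa1a were called higher. The tricarboxylic acid cycle, which burns the acetyl-CoA, had 13 of 17 called higher by limma, 0 lower (also 0 at an unadjusted p under 0.05) and a median of 0.40. In all 17 every TFEB-injected liver lay above every not-injected liver, as it did for 20.1% of all genes. Idh2, mitochondrial isocitrate dehydrogenase that makes NADPH, rose 4.41-fold (2.14 ± 0.11, SE), and Idh3a, a subunit of the NAD-linked enzyme, rose 1.92-fold (0.94 ± 0.08, SE). Bdh1, which makes the ketone body beta-hydroxybutyrate, rose by 0.26 (SE 0.07, adjusted p 0.0321), and with the replicate number as a block its adjusted p was 0.0529. Of the 6 fits with a liver left out, Bdh1 was called only without TFEB-injected liver 2, with adjusted p of 0.0502 to 0.113 in the others, and it was not called with the mean of its probe sets (0.0675). Acat1 was the other ketogenesis gene measured and did not pass. Differences between these lists and the core set were not tested.

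In whole liver RNA, a change in the number of cells of a type and a change in RNA per cell cannot be told apart. Of 9 hepatocyte markers, Apob was called higher, Asgr1 lower and 7 did not pass; their mean log2 level was 14.00 to 14.07 in TFEB-injected livers, against 14.16 to 14.17 in not-injected livers. In 6 of the 9 every TFEB-injected liver lay below every not-injected liver, as it did for 26.1% of all genes. Of 5 endothelial markers, Pecam1, Stab2 and Lyve1 were called higher, and their mean level was 8.44 to 8.63 in TFEB-injected livers, against 7.74 to 7.79 in not-injected livers. Of 7 Kupffer cell and macrophage markers, Cd68 and Cd5l were called higher and Marco lower, with mean levels of 9.57 to 9.74 in TFEB-injected livers and 9.21 to 9.62 in not-injected livers. Of 4 lymphocyte markers Ptprc, carried by all white blood cells, was called higher (1.64-fold, adjusted p 0.00876). The others, Cd3e, Cd3g and Cd79a, had differences of -0.20, -0.07 and -0.09 and did not pass, Cd3g with a signal under the lower quartile of each array. Of 4 neutrophil markers S100a8 was called higher (1.67-fold, adjusted p 0.047). S100a9, Ngp and Camp had differences of 0.54, 0.05 and -0.02 and did not pass. Of 3 erythroid markers Alas2, for heme synthesis, fell 3.04-fold (adjusted p 0.000743), and of 3 pancreas markers Cela1, an elastase, fell 2.28-fold (adjusted p 0.00211). The other erythroid markers, Hba-a1 and Slc4a1, had differences of -0.02 and -0.26 and did not pass, Hba-a1 with a signal under the lower quartile of each array. Neither did the pancreas markers Cpa1 and Prss2, with differences of -0.03 and -0.07. Leaving out not-injected liver 1, 2 or 3 ended the S100a8 call, with adjusted p of 0.0911 to 0.143, and its difference was 0.45 without TFEB-injected liver 1. Marco kept its call only without TFEB-injected liver 2, with adjusted p of 0.051 to 0.0811 in the other 5 such fits. The part of these cell types in the results was not tested. Muscle and fat also use these enzymes. Of 6 striated muscle markers and 5 adipose markers, 0 were called by limma, and at an unadjusted p under 0.05 there were 0 higher and 2 lower among the muscle markers and 1 each way among the adipose markers. Myh4, Tnnt3, Myh6, Adipoq, Cidea, Ucp1 and Lep had signals under the lower quartile of each array.

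The genes with the profile closest to that of Hadhb over the 6 arrays, each centred on its not-injected mean, were Tex264, Zbtb14 and Gng12, at Euclidean distances of 0.0414, 0.0638 and 0.0656 on the log2 scale. Their differences were 0.41, 0.40 and 0.42, and that of Zbtb14 was 0.25 with the mean of its probe sets. These genes share the arrays and the contrast with Hadhb, and the likeness is a description.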

How the data were processed

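RNA of 6 livers, 3 TFEB-injected and 3 not-injected, was measured on Affymetrix mouse arrays as biotinylated cRNA, per the labels. The authors deposited log2 values per probe set; per the submitters' processing notes they used RMA and affy, with no version given. RMA usually equalises arrays and compresses low values and small folds, and any filter of theirs is unstated. Platform annotation gave 1 symbol to 20380 of 22690 probe sets, which named 12393 genes. Each gene was read from its brightest probe set, by mean over 6 arrays. Of these genes 12369 were found in the RefSeq table of GRCm38.p6, and 0 symbols changed. The files name no build, so gene positions are given only for RefSeq promoter windows.

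Limma (version 3.58.1, R 4.3.3; lmFit and eBayes, no covariate, no filter on low values) tested TFEB-injected minus not-injected livers, two-sided, with Benjamini-Hochberg adjustment over all genes, or over 20380 probe sets where probe sets are named. Single values and pairs used two-sided exact permutation tests. Standard errors come from the moderated fit, and for pairs from the 2 groups' variances. Scripts were tested on simulated data. The 14 alternatives used the replicate number as a block, an intensity trend, no moderation, the mean of all probe sets, genes at or above the median level, a second quantile normalisation, median centring, array weights and each array left out in turn; every probe set was also tested on its own.

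Named genes are all 10 members, Ppara, Ppargc1a and Acacb, up to 3 called genes with the smallest p in each pathway and regulator list (the smallest p if none was called) and up to 2 in each comparator list. Cell markers were to be named if called at 1.5-fold or more, up to 2 per list. Other genes, among them Slc25a20, Bbox1, Etfa, Etfdh, Prkab1, Prkag1 and the remaining called genes and markers, were named after their values were seen. The members and lists were chosen with earlier results of these data known. The likeness rule took the called member with the smallest p and the 3 nearest genes. Besides the marker lists given in the report, stellate, biliary, lymphocyte, neutrophil, erythroid and pancreas markers had 0, 0, 1, 1, 0 and 0 genes called higher and 1, 0, 0, 0, 1 and 1 called lower.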

Additional observations from a re-analysis of the deposited data

How the results depend on the processing

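Among the 10 core genes, 0 were called lower under every one of the 14 alternatives, and the 5 genes that did not pass the test passed under none. The 5 calls became 3 without moderation, where Cpt1a (adjusted p 0.0853) and Acads (0.0807) were lost, and 3 to 5 with 1 liver left out. With the mean of all probe sets 4 were called. The median difference of the 10 genes stayed between 0.21 and 0.34. Genes called in all numbered 3486, against 1881 without moderation and 1973 to 4378 with 1 liver left out. In the further pathway lists, 6 called higher and 10 called lower became 2 and 5 without moderation, and 1 to 8 and 3 to 11 with 1 liver left out. In the regulator lists, 8 and 2 became 4 and 1 without moderation, and 4 to 7 and 1 to 3 with 1 liver left out. The cause of these losses was not tested, beyond the fewer arrays or unpooled variances of the fits. Among the genes run under the alternatives, signs turned in Cpt2, Crat and Ppara, none of them called. The difference of Cpt2 was 0.014 with array weights and ranged from -0.101 to 0.0399 with 1 liver left out. That of Crat ranged from -0.0018 to 0.305, negative only without TFEB-injected liver 3. That of Ppara was -0.0047 after a second quantile normalisation and ranged from -0.013 to 0.0782 with 1 liver left out. With the replicate number as a block, 5 core genes were called and 3348 genes in all. Same-numbered livers deviated together with correlations of 0.14, 0.06 and 0.01, against -0.16 to 0.08 for livers of different number. With 3 livers per group these values cannot decide whether same-numbered livers share more than a number. Signal over background could not be assessed, since no detection calls were used.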
